A study of Rattus norvegicus with 8 samples.

Results

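Neuropeptides are short signalling peptides that neurons cut out of larger precursor proteins and release from dense-core vesicles. Chromogranins are acidic proteins that condense inside the same vesicles and are themselves cut into peptides. In the hippocampus many of these precursors are made by interneurons and some by granule and pyramidal cells, and transcription of several of them is known to follow neuronal activity. The genes described here are 8 neuropeptide precursor genes (Penk, Pdyn, Tac1, Cck, Crh, Nts, Adcyap1 and Gal) and the 2 chromogranin genes Chga and Chgb. They were chosen by symbol, as the gene names that the array files give, and are 10 of the 35901 distinct names among the array's non-control probes.

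Total RNA was measured on 8 one-colour Agilent rat arrays. The cells were hippocampal neurons from newborn Wistar rats of postnatal day 0 to 1, grown in Neurobasal-A with B27. Lentivirus carrying an shRNA was added on day 3 in vitro at a multiplicity of infection of 6 and left for 7 days, so RNA was taken on day 10. In 4 samples the shRNA targeted Sirt6, which encodes a nuclear NAD-dependent deacylase of the sirtuin family, and in the 4 control samples it was scrambled. All 8 samples were therefore transduced, 1 shRNA stands for the knockdown and 1 for the control, and the labels name no promoter for the shRNA. Whether samples with the same shRNA are separate cultures is not given in the labels, so the p-values rest on a spread that may be technical. A single slide held all arrays, scrambled in row 1 and Sirt6 shRNA in row 2, and the effect of the row and that of the shRNA cannot be told apart in any comparison here.

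Levels are log2 processed signals minus the array's 75th percentile, so a level of 0 is a signal at that percentile. Sirt6 itself averaged 2.05 ± 0.033 (SD, n = 4) in the control and 0.53 ± 0.053 (SD, n = 4) in the knockdown, which is 34.6% of the control signal. Between 60.4% and 65.3% of the probes on an array were well above background. All 8 pan-neuronal marker genes, such as Rbfox3 and Tubb3, were well above background on all 8 arrays, and so were markers of astrocytes such as Gfap and Aqp4, so the cultures also held RNA of glial genes. In such bulk RNA, fewer cells of a type and less RNA per cell cannot be told apart.

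The files name 13 probes for the 10 genes. Of these, 12 were well above background on all 8 arrays and 1 Penk probe was so on none. A further probe matched Adcyap1 by its accession although its gene name in the files is a transcript identifier. It lies outside the naming rule and is given only beside the Adcyap1 probes. Each gene is represented by its brightest probe, and levels of different probes are not compared.

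The probe sequences show which stretch of a precursor was read. The Penk probe (rn4, chr5:17509637-17509696, minus strand) runs through the codons of Met-enkephalin, an opioid pentapeptide whose sequence the precursor holds several times. In this stretch codons for arginine and phenylalanine follow directly, as in the longer peptide Met-enkephalin-Arg-Phe. The 15 codon bases of Met-enkephalin are in capitals. The Nts probe (rn4, chr7:40474898-40474957, minus strand) runs through neuromedin N and into neurotensin, and its capitals mark the runs of adjacent codons for lysine or arginine in its only open frame. Prohormone convertases cut precursors at such basic runs, though not at every one. The first run holds the lysine and arginine codons before neuromedin N and the codon of its first residue, a lysine. The next lies between neuromedin N and neurotensin, and the last lies inside neurotensin. Both probes are printed 5′ to 3′ as the array files give them.
Penk: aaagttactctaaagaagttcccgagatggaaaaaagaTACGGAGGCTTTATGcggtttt
Nts: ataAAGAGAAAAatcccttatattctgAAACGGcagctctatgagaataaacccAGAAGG

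Upstream sequence was found in the RefSeq promoter table (assembly GRCr8) for 6 of the 10 genes, namely Pdyn, Tac1, Nts, Adcyap1, Gal and Chgb. The 250 bases before each start were searched on both strands for TGACG, the core of the cyclic-AMP response element bound by CREB, for the full palindrome TGACGTCA, which contains it, and for TGANTCA, the AP-1 element. TGACG was found in 3 of the 6 and in 18.2% of the 33469 promoters of the table. TGANTCA was found in Nts and in 6.34% of the table. TGACGTCA was found in 0 of the 6 and in 1.59% of the table. The 3 promoters with a match are shown. Their genes had fold changes below 0, but only Tac1 among them passed the test. No promoter was found for the called genes Penk and Cck. Whether a match goes with the direction of change was not tested. Capitals mark the matches, TGACG on the minus strand reading CGTCA. They lie 206 bases before the start in Tac1 (chr4:36645333-36645582, plus strand), 171 bases (TGACG) and 212 bases (TGANTCA) before it in Nts (chr7:39460889-39461138, minus strand) and 63 bases before it in Gal (chr1:210084573-210084822, minus strand). A match is a run of letters and says nothing of whether a factor binds there.
Tac1: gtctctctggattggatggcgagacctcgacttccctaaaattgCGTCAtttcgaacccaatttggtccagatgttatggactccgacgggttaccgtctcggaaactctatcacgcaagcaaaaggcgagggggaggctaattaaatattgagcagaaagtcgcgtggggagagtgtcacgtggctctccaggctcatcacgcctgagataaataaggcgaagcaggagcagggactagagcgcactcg
Nts: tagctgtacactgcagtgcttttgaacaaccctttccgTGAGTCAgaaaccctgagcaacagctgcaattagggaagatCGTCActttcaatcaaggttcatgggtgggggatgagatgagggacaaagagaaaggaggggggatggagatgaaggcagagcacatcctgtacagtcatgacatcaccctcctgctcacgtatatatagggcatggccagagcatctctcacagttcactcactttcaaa
Gal: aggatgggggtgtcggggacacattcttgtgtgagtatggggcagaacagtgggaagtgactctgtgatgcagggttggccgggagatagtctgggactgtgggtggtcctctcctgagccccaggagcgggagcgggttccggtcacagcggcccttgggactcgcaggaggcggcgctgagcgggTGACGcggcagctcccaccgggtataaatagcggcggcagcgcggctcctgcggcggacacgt

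Over the 22594 genes tested, 30.4% were called by limma at a Benjamini-Hochberg adjusted p under 0.05, 15.6% being higher and 14.8% lower in the knockdown. Of the 10 neuropeptide and chromogranin genes 3 were called, a share near that background. The count was 4 of 10 where a probe matched to Adcyap1 by accession stood for that gene. Tac1 and Penk fell and Cck rose. The groups did not overlap in 5 of the 10 (Tac1, Penk and Nts lower, Cck and Chga higher), against 33.4% of all genes, 17.4% higher and 16.1% lower. The median log2 fold change of the 10 genes was 0.11 and that of all genes 0.02. Their median absolute log2 fold change was 0.18, that of all genes 0.14 and that of all called genes 0.30. The changes were thus mostly small, from 0.09 to 0.51 in absolute log2 units, and went both ways, with 6 values above 0 and 4 below.

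**Figure D1:**
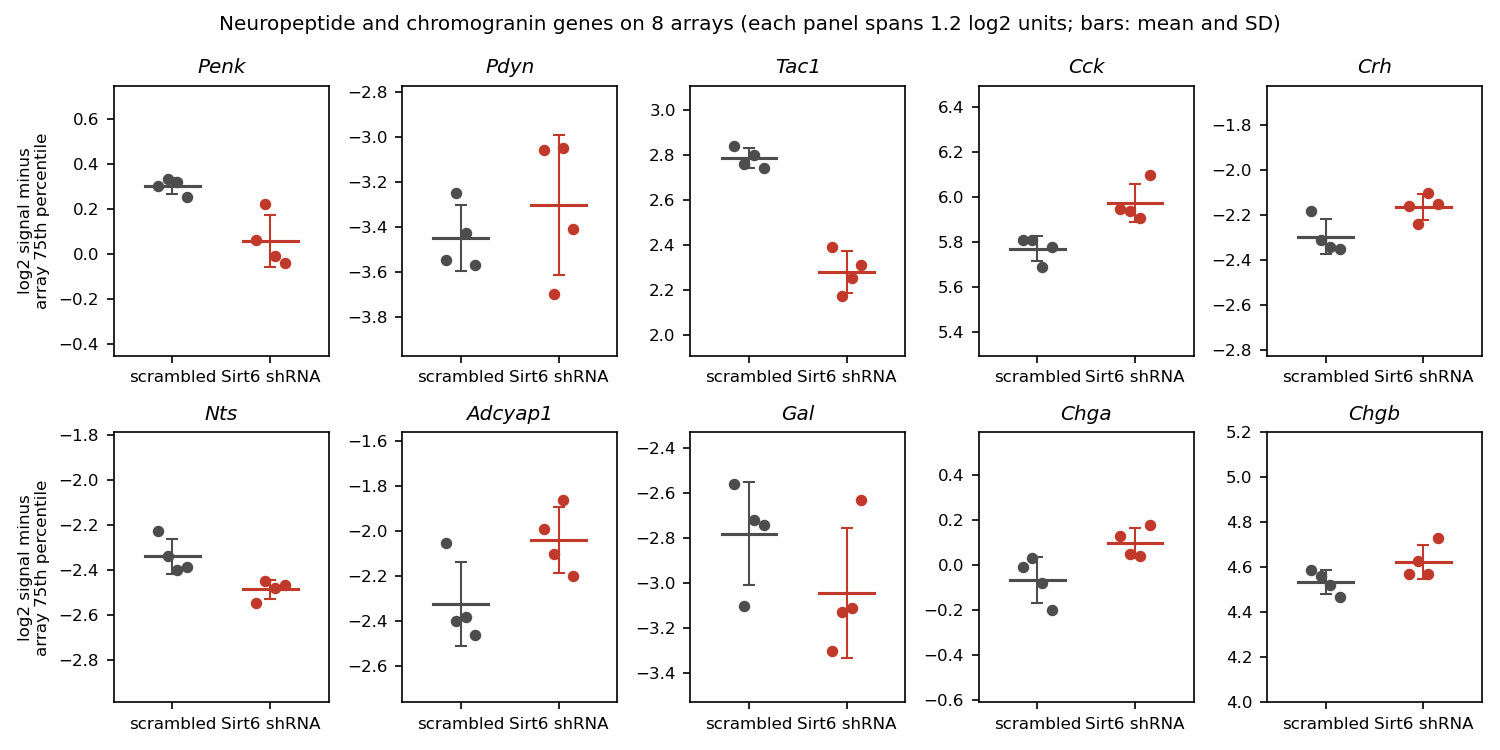
Level of each of the 10 genes on every array (y axis, log2 signal minus the array's 75th percentile), with scrambled shRNA and Sirt6 shRNA arrays as separate points and the mean and SD of 4 arrays as bars. Each panel spans the same range of log2 units around its own centre. The groups are apart in Tac1, Penk, Nts, Cck and Chga, and Pdyn and Gal scatter most.

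Tac1 encodes the precursor of substance P and neurokinin A, tachykinins that excite neurons and dilate vessels. Its probe (rn4, chr4:32657551-32657610, plus strand) read 2.84, 2.76, 2.80 and 2.74 on the scrambled arrays 1 to 4 and 2.39, 2.17, 2.25 and 2.31 on the Sirt6 shRNA arrays 1 to 4. Every Sirt6 shRNA array lay below every scrambled array, and the gap between the groups was wider than the spread within either. Before scaling, the processed signal of Tac1 averaged 2220 ± 75.8 (SD, n = 4) in the control and 1610 ± 111 (SD, n = 4) in the knockdown. Tac1 fell by 0.51 on the log2 scale (SE 0.054, 95% interval -0.63 to -0.38), to 70.4% of the control level, with a limma adjusted p of 0.000420. An absolute change at least this large was seen in 8.22% of all genes, and 797 genes had a smaller p. The call held under all 21 alternatives, where the highest adjusted p was 0.0191 with scaling on the E1A spike-in probes.

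The genes whose deviations from their own mean over the 8 arrays lay nearest to those of Tac1 were Sh3d21, Fn3k and Abcb1b, with root mean square differences of 0.031, 0.0407 and 0.0414 log2 units. Their log2 fold changes were -0.49, -0.49 and -0.48. That of Sh3d21 was -0.13 with normexp correction and -0.30 with 16 added to each signal, and that of Abcb1b was -0.30 over the mean of its probes. For Penk the nearest were a transcript without a symbol, Zfp423 and C14h4orf19, at 0.0366, 0.0388 and 0.04 log2 units. Likeness was taken over all 8 arrays, so it follows the group difference as well as the variation within groups.

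The opioid precursors Penk and Pdyn encode the enkephalins and the dynorphins. The measured Penk probe read 0.30, 0.33, 0.32 and 0.25 on the scrambled arrays and 0.06, 0.22, -0.01 and -0.04 on the Sirt6 shRNA arrays. All 4 Sirt6 shRNA arrays lay below the scrambled ones, and replicate 2 lay close under them while the others were clearly lower. Penk fell by 0.24 on the log2 scale (SE 0.060, 95% interval -0.38 to -0.10), to 84.7% of the control level, with a limma adjusted p of 0.0199. Without scrambled replicate 2 the limma adjusted p was 0.0538, and without Sirt6 shRNA replicate 3 it was 0.0552, so the call rests on each of these arrays. With E1A spike-in scaling the limma adjusted p was 0.176, and with no filter on dim probes 0.0502. A change at least as large was seen in 29.9% of all genes. The other Penk probe, which lies upstream of the first on the same strand (rn4, chr5:17514076-17514135), had mean processed signals of 1.62 and 2.17 in the scrambled and Sirt6 shRNA groups and stood well above background on 0 of the 8 arrays, so it bears on nothing here.

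Pdyn was dim and uneven. Its levels were -3.55, -3.25, -3.43 and -3.57 on the scrambled arrays and -3.06, -3.70, -3.05 and -3.41 on the Sirt6 shRNA arrays. The groups overlapped, Sirt6 shRNA replicate 2 being the lowest of all 8 arrays and replicates 1 and 3 the highest. Its log2 fold change was 0.14 (SE 0.15, 95% interval -0.21 to 0.50), with a limma adjusted p of 0.520. With normexp correction the value was 0.04.

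Whether the opioid precursors changed unequally was tested on the difference between both log2 levels within each array. Set against the mean of the scrambled arrays, it was 0.097, -0.17, 0.000859 and 0.0724 on those arrays and -0.624, 0.177, -0.709 and -0.372 on the Sirt6 shRNA arrays. On 3 of the 4 Sirt6 shRNA arrays Penk was low relative to Pdyn, and replicate 2 was the highest of all. The mean difference was -0.382 (SE 0.209). The two-sided exact permutation test gave p = 0.143, or 0.171 after Benjamini-Hochberg adjustment over 2 ratios, and a p below 0.0286 cannot be reached with 4 arrays a group. Without Sirt6 shRNA replicate 2 the Penk to Pdyn ratio changed by -0.569, and the groups no longer overlapped. The exact permutation p was then 0.0286, unadjusted and the smallest that the remaining arrays allow, so the result turns on that array.

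Cck encodes cholecystokinin, made in the hippocampus by a class of basket interneurons and by pyramidal cells. Its probe (rn4, chr8:126492642-126492700, minus strand) has 10 spots on each array, and their mean read 5.81, 5.81, 5.69 and 5.78 on the scrambled arrays and 5.95, 5.94, 5.91 and 6.10 on the Sirt6 shRNA arrays. The groups did not overlap, and Sirt6 shRNA replicate 4 was the highest. Before scaling, its processed signal averaged 17600 ± 326 (SD, n = 4) in the control and 20800 ± 913 (SD, n = 4) in the knockdown. Cck rose by 0.20 on the log2 scale (SE 0.053, 95% interval 0.08 to 0.32), or 1.15-fold, with a limma adjusted p of 0.0233. The call was lost without scrambled replicate 3 (limma adjusted p = 0.0547) or scrambled replicate 4 (0.0516), under median centring (0.140), with E1A scaling (0.0940) and with no filter on dim probes (0.0559).

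Nts, the precursor of neurotensin, read -2.23, -2.34, -2.40 and -2.39 on the scrambled arrays and -2.55, -2.45, -2.48 and -2.47 on the Sirt6 shRNA arrays. The groups did not overlap, but the gap between scrambled replicate 3 and Sirt6 shRNA replicate 2 was narrower than the spread among the scrambled arrays. The log2 fold change of -0.15 (SE 0.049, 95% interval -0.26 to -0.03) missed the threshold, with a limma adjusted p of 0.0537. It was called in 5 of the 21 alternatives, quantile normalization among them (0.0255), and was -0.07 with normexp background correction and with E1A scaling.

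Gal, the precursor of galanin, read -2.56, -3.10, -2.72 and -2.74 on the scrambled arrays and -3.30, -3.13, -3.11 and -2.63 on the Sirt6 shRNA arrays. Both groups had a member among the others' values, scrambled replicate 2 being low and Sirt6 shRNA replicate 4 high. The log2 fold change was -0.26 (SE 0.16, 95% interval -0.64 to 0.12), with a limma adjusted p of 0.264. The interval is the widest of the 10 genes. With normexp correction the value was -0.16, and without Sirt6 shRNA replicate 4 it was -0.40.

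Crh encodes corticotropin-releasing hormone, the hypothalamic start of the stress axis, which hippocampal interneurons make as well. Its brightest probe read -2.18, -2.31, -2.34 and -2.35 on the scrambled arrays and -2.16, -2.24, -2.10 and -2.15 on the Sirt6 shRNA arrays, and scrambled replicate 1 lay among the Sirt6 shRNA values. Its log2 fold change was 0.13 (SE 0.051, 95% interval 0.01 to 0.25), with a limma adjusted p of 0.0886. Another probe of identical sequence gave 0.22 (SE 0.077), with a limma adjusted p over the kept probes of 0.0672. Both values thus come from the same sequence on the same arrays. Without scrambled replicate 1 the first probe was called (limma adjusted p = 0.0299). Its value was 0.06 with normexp correction, 0.09 with median centring and 0.21 with E1A scaling.

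Adcyap1 encodes PACAP, a peptide of the secretin and VIP family that raises cyclic AMP in neurons. Its probes differed in how much they changed. The brightest probe named Adcyap1 in the files, A_44_P1087038, read -2.05, -2.40, -2.38 and -2.46 on the scrambled arrays and -1.99, -2.10, -1.86 and -2.20 on the Sirt6 shRNA arrays. Scrambled replicate 1 lay among the Sirt6 shRNA values. The log2 fold change was 0.28 (SE 0.11, 95% interval 0.04 to 0.53), with a limma adjusted p of 0.0814, and without that array the limma adjusted p was 0.0173. With normexp correction the value was 0.16.

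The other probe of that name, A_44_P1109499, read -2.93, -2.59, -2.65 and -2.77 on the scrambled arrays and -1.89, -1.99, -1.86 and -1.85 on the Sirt6 shRNA arrays. The groups lay far apart, and the Sirt6 shRNA arrays were close together. This probe rose by 0.84 on the log2 scale (SE 0.076), or 1.78-fold, with a limma adjusted p of 0.000231 over the 28620 kept probes, of which 28.4% were called. With normexp correction the rise was 0.43 (limma adjusted p = 5.78e-06), so its size depends on how background is handled. The probe that matched Adcyap1 by accession alone, A_42_P541718, read 0.00, 0.02, -0.03 and -0.01 on the scrambled arrays and 0.28, 0.27, 0.46 and 0.37 on the Sirt6 shRNA arrays, also without overlap. It rose by 0.35 (SE 0.049), or 1.27-fold, with a limma adjusted p over the probes of 0.00174. All 3 probes lie on an unplaced piece of rn4 chromosome 9, in the order A_44_P1087038, A_42_P541718 and A_44_P1109499 along the plus strand. Adcyap1 is not among the 3 called genes because its brightest probe of that name in the files missed the threshold. With the accession-matched probe, the brightest of the 3, standing for the gene, Adcyap1 was called (log2 fold change 0.35, SE 0.049, limma adjusted p over the genes = 0.0015) and the count was 4 of 10. With the mean of its 2 named probes the log2 fold change was 0.56 with a limma adjusted p of 3e-04. Whether the probes' changes differ from each other was not tested.

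**Figure D2:**
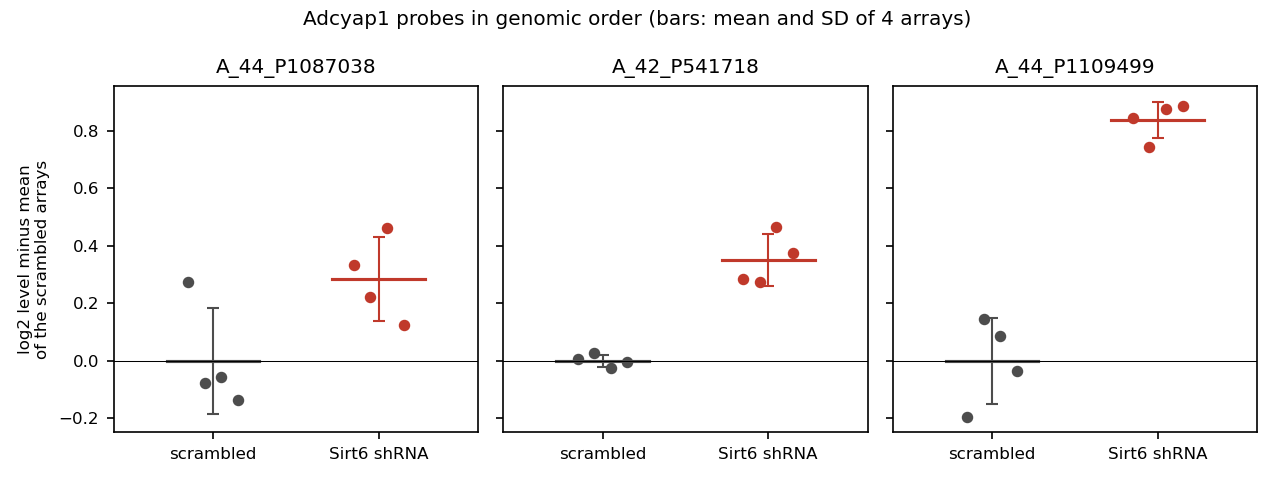
Level of the 3 Adcyap1 probes on each array, as the difference from the mean of the scrambled arrays (y axis, log2 units), in genomic order from left to right. Bars are the mean and SD of 4 arrays. All 3 probes average higher with the Sirt6 shRNA, by 0.28, 0.35 and 0.84, and scrambled replicate 1 overlaps the Sirt6 shRNA arrays in the first panel only.

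Chga and Chgb encode chromogranin A and chromogranin B, which load dense-core vesicles and serve as markers of neuroendocrine secretion. Chga read -0.01, 0.03, -0.08 and -0.20 on the scrambled arrays and 0.13, 0.05, 0.04 and 0.18 on the Sirt6 shRNA arrays. The groups did not overlap, though scrambled replicate 2 and Sirt6 shRNA replicate 3 nearly touched. The log2 fold change was 0.16 (SE 0.060, 95% interval 0.02 to 0.30), with a limma adjusted p of 0.0745.

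Chgb, read by a probe with 10 spots an array, was at 4.59, 4.56, 4.52 and 4.47 on the scrambled arrays and 4.57, 4.63, 4.57 and 4.73 on the Sirt6 shRNA arrays. The groups overlapped, and Sirt6 shRNA replicate 4 was again the highest. Its log2 fold change was 0.09 (SE 0.050, 95% interval -0.02 to 0.21), with a limma adjusted p of 0.198. The value was 0.05 with median centring and 0.17 with E1A scaling. The change of Chgb relative to Chga within an array was -0.0711 (SE 0.0417), with a two-sided exact permutation p of 0.171, also 0.171 after adjustment over the 2 ratios.

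**Figure D3:**
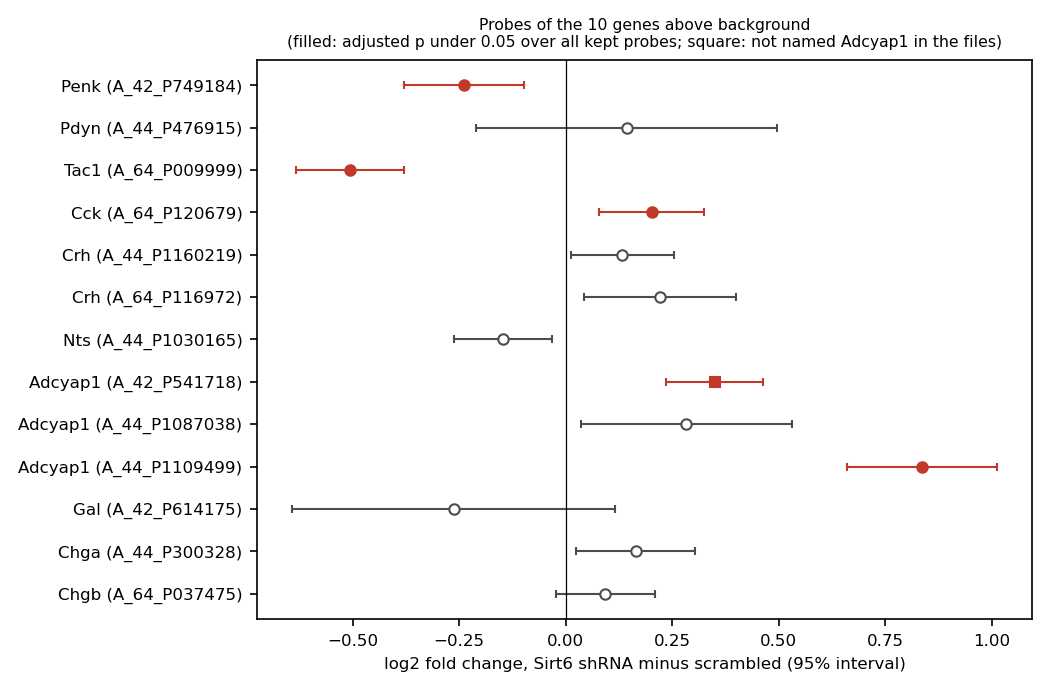
Log2 fold change of each measured probe of the 10 genes, Sirt6 shRNA minus scrambled (x axis), with its 95% interval from limma. Filled symbols passed an adjusted p of 0.05 over all kept probes, and the square is the Adcyap1 probe matched by accession alone. The probes of Tac1 and Penk lie below 0, that of Cck above it, and the Adcyap1 probes spread from 0.28 to 0.84.

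The sign of all 10 fold changes was the same under 13 alternatives of processing and 8 omissions of 1 array. The probe filters, the fit over all kept probes, the eBayes options and the replicate block left all 10 fold changes unchanged. The sign could not differ under these, and only the calls could. The calls were less stable. Tac1 was called in 21 of the 21, Penk in 17 and Cck in 16. Nts and Adcyap1 were called in 5 each, Crh and Chga in 2 each, Chgb in 1, and Pdyn and Gal in 0.

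**Figure D4:**
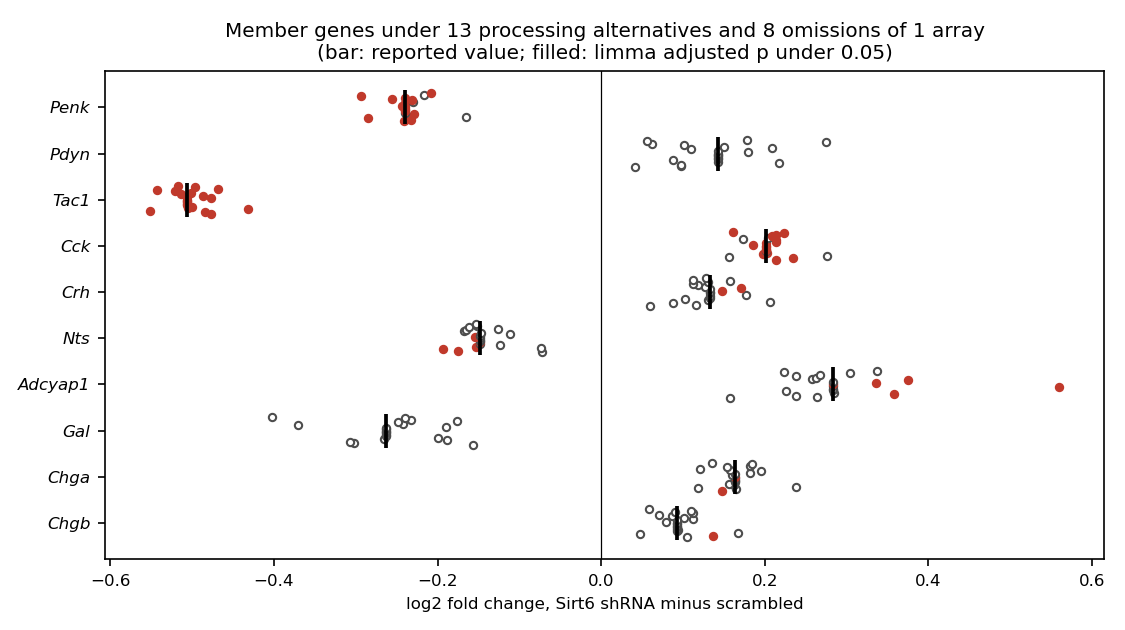
Log2 fold change of each of the 10 genes (x axis) under 13 processing alternatives and 8 omissions of 1 array. The vertical bar is the reported value and filled points were called by limma at an adjusted p under 0.05. All Tac1 points are filled, no Pdyn or Gal point is, and no gene's points cross 0.

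Other genes of peptide signalling were read from 5 lists holding 101 genes, of which 80 could be tested. Of these 37 were called, 17 higher and 20 lower, which is 46.2% beside 30.4% of all genes. With E1A scaling 21 of the 80 were called, where the share of all genes called was 14.5%. These shares describe the lists and were not tested against other genes.

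Among 42 other neuropeptide precursors 27 were tested, 4 rose and 6 fell, with a median log2 fold change of 0.01. Cort, the precursor of the somatostatin relative cortistatin, fell by 1.23 (SE 0.080, limma adjusted p = 5.89e-05), and its other kept probe fell by 1.21. Its levels ran from 2.83 to 3.18 on the scrambled arrays and from 1.63 to 1.81 on the Sirt6 shRNA arrays, far from overlapping. Nmb, the neuromedin B precursor, rose by 0.78 (SE 0.052), and Npff, the precursor of neuropeptide FF, by 0.64 (SE 0.15). The natriuretic peptide gene Nppa rose by 0.77 (SE 0.13), but by 0.18 with normexp correction and by 0.35 with 16 added to each signal. Npy, which encodes neuropeptide Y, fell by 0.23 (SE 0.069, limma adjusted p = 0.0373), and Vip, which encodes vasoactive intestinal peptide, rose by 0.28 (SE 0.075, limma adjusted p = 0.0244). The Npy and Vip calls each held in 13 of 21 alternatives. Among the omitted arrays, the Npy call was lost without scrambled replicates 1, 2 or 3 or Sirt6 shRNA replicates 2 or 3, and the Vip call without scrambled replicates 1 or 2 or Sirt6 shRNA replicates 1, 3 or 4. Sst, the somatostatin precursor and relative of Cort, had a log2 fold change of -0.15 (SE 0.065, limma adjusted p = 0.119), which was -0.08 with E1A scaling.

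Of 5 other granins 2 rose and 1 fell. Vgf, a granin-like precursor induced by neurotrophins, fell by 0.39 (SE 0.068), and its other kept probe fell by 0.51, while with E1A scaling the limma adjusted p of the first was 0.0810. Scg5, the chaperone 7B2 of the convertase PC2, rose by 0.34 (SE 0.038), and Scg2, which encodes secretogranin II, by 0.12 (SE 0.032), or by 0.07 with median centring and 0.19 with E1A scaling. The Scg2 call held in 11 of 21 alternatives and was lost without scrambled replicates 1, 2 or 3 or Sirt6 shRNA replicates 1, 3 or 4.

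Of 15 enzymes that cut and finish precursors 4 rose and 3 fell. Cpz, a carboxypeptidase, rose by 0.59 (SE 0.14), or by 0.21 with normexp correction. Qpct, which forms the amino-terminal pyroglutamate of peptides such as neurotensin, rose by 0.53 (SE 0.058) and the convertase gene Furin by 0.30 (SE 0.053). Ctsl, which encodes cathepsin L, fell by 0.30 (SE 0.059), though not with E1A scaling, where the limma adjusted p was 0.164. The genes of the main neuronal convertases, named after their values were seen, were not called, with log2 fold changes of 0.18 for Pcsk1 (limma adjusted p = 0.0893) and 0.13 for Pcsk2 (limma adjusted p = 0.123). The carboxypeptidase gene Cpe, also named after its values were seen, was among the 3 that fell, by 0.22 (SE 0.034, limma adjusted p = 0.00245).

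Of 17 tested genes of dense-core vesicle formation and release 3 rose and 5 fell. Rab27a, a vesicle-docking GTPase, fell by 0.75 (SE 0.12), or by 0.47 with normexp correction. Arfip1, which acts at the trans-Golgi, fell by 0.45 (SE 0.057), its other kept probe by 0.34. Cyb561, the vesicle membrane electron carrier that supplies ascorbate-dependent amidation, rose by 0.47 (SE 0.055). Syt10, a calcium sensor of vesicle release, was well above background on the 4 scrambled arrays and on 0 of the 4 Sirt6 shRNA arrays. It thus passed the filter on dim probes through the scrambled arrays alone, and is counted among the 5 that fell. With its Sirt6 shRNA levels raised to a background limit, Syt10 was 1.63-fold lower. The limma adjusted p of its measured levels was 0.0462. The log2 fold change was -0.16 with normexp correction and -0.40 with 16 added to each signal, so its size depends on how background is handled. Its call held in 12 of the 20 alternatives that could test it, and was lost without any 1 scrambled array and without Sirt6 shRNA replicates 1 or 2. For the 1.63-fold value each Sirt6 shRNA array's Syt10 level was first raised, where lower, to that of the array's dimmest probe well above background. This level is no firm upper limit. Sirt6 shRNA replicate 3 read -5.54, above its limit of -5.806, and was still not well above background.

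Of 16 tested receptors and binding proteins of the 8 peptides 4 rose and 5 fell. The mu opioid receptor gene Oprm1 rose by 0.79 (SE 0.15), but by 0.20 with normexp correction and by 0.44 with 16 added to each signal. The neurotensin receptor gene Ntsr1 rose by 0.65 (SE 0.070), or by 0.43 with normexp correction. Crhbp, which encodes the protein that binds and holds back CRH, fell by 0.55 (SE 0.093). Cckbr, the main brain receptor of cholecystokinin, fell by 0.51 (SE 0.048, limma adjusted p = 0.000226) at its brightest probe, while its other kept probe gave -0.07 (SE 0.098, limma adjusted p over the probes = 0.636), so its probes disagree. Their mean gave -0.29.

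**Figure D5:**
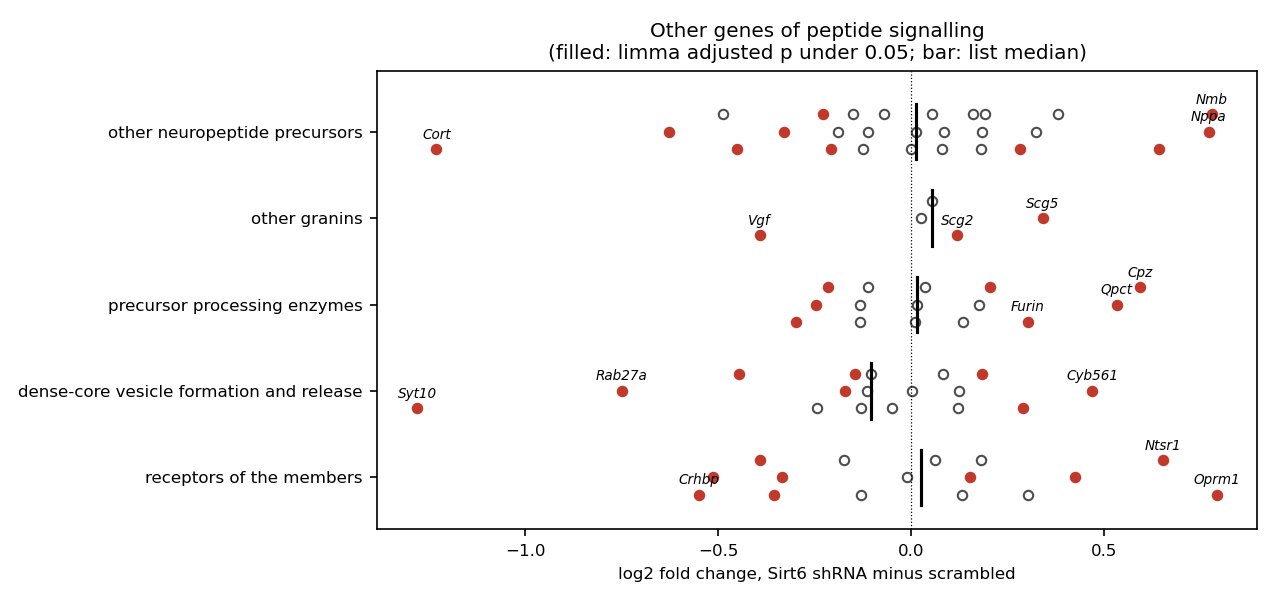
Log2 fold change of each tested gene of the 5 lists of peptide signalling (x axis, Sirt6 shRNA minus scrambled), 1 row per list. Filled points were called by limma at an adjusted p under 0.05 and the bar is the list median, which lies between -0.10 and 0.05 in every row. Cort lies far to the left of the other precursors. The Syt10 point is its measured value, whose size depends on how background is handled.

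Markers of the cell types that make or surround these peptides were read from the same fit, beside the 30.4% of all genes called. Called were 77.8% of astrocyte, 75% of GABAergic and 57.1% of fibroblast markers. The share was 50% each for pan-neuronal, for endothelial and mural, and for choroid plexus and ependymal markers. It was nearer that of all genes for microglial (37.5%), oligodendrocyte (33.3%) and excitatory markers (28.6%). Of 12 GABAergic interneuron markers, with peptide genes left out, 7 fell and 2 rose, and their summed level, in units of the array's 75th percentile, was 81.6 to 87.8 on the scrambled arrays and 64.7 to 71.7 on the Sirt6 shRNA arrays. Among them Pvalb fell by 0.84, Gad1 by 0.41, Gad2 by 0.31, Reln by 0.29, Lhx6 by 0.23 and Dlx1 by 0.20, while Calb2 rose by 0.49 and Dlx5 by 0.17. Dlx2 (log2 fold change 0.97, limma adjusted p = 0.0707) and the vesicular GABA transporter gene Slc32a1 (-0.03, limma adjusted p = 0.781) were not called. Dlx2 was dim, being well above background on 1 scrambled array and on 4 Sirt6 shRNA arrays. It thus passed the filter on dim probes through the group where it read higher. Of 7 excitatory markers 2 rose and 0 fell, with summed levels of 54.7 to 59.6 and 58.1 to 63.4, and Tbr1 and Emx1 did not pass the filter on dim probes. Of 8 pan-neuronal markers 3 rose and 1 fell, with overlapping sums of 129 to 133 and 128 to 143.

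Astrocyte markers were lower in 7 of 9 and higher in 0, with summed levels of 327 to 359 on the scrambled arrays and 234 to 257 on the Sirt6 shRNA arrays. Microglial markers were lower in 3 of 8, with overlapping sums of 26 to 36.6 and 18.5 to 36.6, and oligodendrocyte markers lower in 2 and higher in 1 of 9, with sums of 47.7 to 52.8 and 42.5 to 44.4 and Mbp lower by 1.31. Of 6 endothelial and mural markers the 3 contractile genes of smooth muscle rose, Tagln by 2.14, Myh11 by 0.92 and Acta2 by 0.71. The endothelial genes Pecam1 (-0.46, limma adjusted p = 0.0769) and Cdh5 (0.23, limma adjusted p = 0.117) and the pericyte gene Pdgfrb (-0.07) were not called, and Cldn5, Flt1 and Rgs5 did not pass the filter. The sum of these 6 was 3.45 to 4.24 and 11.1 to 13.6, most of it Tagln on the Sirt6 shRNA arrays. Fibroblast markers rose in 4 of 7, with sums of 15.6 to 18.4 and 19.5 to 21.8, and of 4 choroid plexus and ependymal markers 1 rose and 1 fell, with overlapping sums of 20.1 to 76.7 and 17.1 to 59.2. The part of these marker shifts in the changes of Tac1, Penk, Cck, Cort and the other genes named was not tested.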

How the data were processed

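The deposited spot intensity values were background-subtracted and detrended, per the file headers, by the scanner software Feature Extraction 11.5.1.1 (named in the submitters' processing notes). The deposited table of log2 values equalled these minus 1 constant per array (SD of the difference at most 0.0029), with column medians of -3.70 to -3.59, and served as an alternative. Control and outlier spots were left out, spots of a probe averaged, and each array's 75th percentile subtracted. Probes well above background on at least 4 of 8 arrays were kept (28620 of 45598), named through RefSeq accessions (GRCr8) where matched, and the brightest stood for its gene. The 10 genes were matched by the gene name in the files instead, so 1 brighter probe that matched Adcyap1 by accession did not stand for it; naming it by accession, an alternative chosen after seeing the data, made 4 of the 10 called. The comparison used the two-sided moderated test of limma 3.58.1 under R 4.3.3, through lmFit and eBayes, and p-values were adjusted by Benjamini-Hochberg over 22594 genes. The number of arrays limits the precision.

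The 10 genes, the lists and the settings were chosen with earlier results of these data known. Named were the 10 genes, up to 4 called genes of largest change per list (with fewer than 2 calls, the 2 lowest p), the peptide genes Npy, Sst, Vip, Cort, Scg2 and Vgf, and the 3 genes nearest in profile to Tac1 and Penk. Alternatives covered normexp correction (offset 50), quantile, median and E1A spike-in scaling, 16 added before log2, the probe filters, the probe summary, the variance model, array weights, the replicate number and the omission of each array. An shRNA sequence was not analysed here, and 2 marker genes are counted but not reported by name.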

Additional observations from a re-analysis of the deposited data

Results flagged for a closer look

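Groups of 4 arrays were checked for part of the genes named, not for all. Of these groups, 4 of 84 held a value far from the other 3 relative to the group's range, about the 1 in 20 that chance gives. None belonged to the 10 genes. Nmb read -0.25 in scrambled replicate 4, where the nearest of the others was -0.32. Cyb561 read 2.47 and Cckbr -1.77 in Sirt6 shRNA replicate 4, where the nearest of the others were 2.28 and -1.92. Sh3d21 read -3.68 in scrambled replicate 1, where the others were at -3.72.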

How the results depend on the processing

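The signs of the 10 genes held in all 21 alternatives, some of which leave the fold changes unchanged. The number called beside the reported 3 moved as follows. The share of all genes called at the same setting is given in brackets. With quantile normalization 5 were called (32.4%), with eBayes trend and robust options 5 (33.4%) and with array weights 6 (33.8%). With no filter on dim probes 1 was called (14.5%). The count was 4 with normexp correction (32.9%) and with the deposited log2 values (30.4%). It was also 4 with probes well above background on all 8 arrays (33.6%) and with the mean of a gene's probes (29.1%). Median centring gave 3 (25.1%), with Nts in place of Cck. E1A scaling gave 2 (14.5%), Tac1 and Adcyap1. Omission of 1 array gave 2 to 5 called, beside 23.5% to 29.2% of all genes. The 5 came without scrambled replicate 1, where Crh and Adcyap1 were added. With E1A scaling the count of all genes called was 3270 (14.5%), and 21 were called on the 5 lists. The share of higher genes among the calls was then 64%, beside 51.3% reported and 35.2% with median centring. The omissions gave 29 to 37 called on the lists and 5312 to 6590 over all genes. The change of the Penk to Pdyn ratio ran from -0.569 (without Sirt6 shRNA replicate 2) to -0.273 over the omissions, and that of the Chgb to Chga ratio from -0.0941 to -0.0415. Samples with the same replicate number deviated together with weak correlations of 0.0637, 0.16, 0.133 and 0.0329. For replicates 2 and 3 the best match in the other group bore the same number, and for replicates 1 and 4 it did not. Whether the number marks a shared preparation was not tested. With the replicate number as a block, 3 of the 10 genes were called, again Tac1, Penk and Cck, 34 on the lists and 6424 over all genes. Pdyn, Gal, Nts, Crh and the dimmer Adcyap1 probes had mean signals under 100, where the background limits what can be told. Naming probes of the 10 genes by accession too, chosen after seeing the data, added Adcyap1, for 4 called of 10. The causes of these shifts were not tested.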
